A study of Danio rerio with 10 samples.

Results

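Cells that the authors' annotation names Muscle Blood, progenitors of muscle and blood, were compared with cells it names Ventral Margin. That name places them at the ventral side of the blastoderm edge. The annotation of each cell chose the members, and 399 Muscle Blood and 968 Ventral Margin cells, together 1367 of the 6371 cells of the 4 epiboly libraries, were used. The embryos were zebrafish (Danio rerio) of the AB/TL strain, and every embryo had received 20 mM 4sUTP, a uridine analogue, at the 1-cell stage. Messenger RNA of single cells was captured by Drop-seq, and iodoacetamide (IAA, 10 mM) then altered the incorporated analogue so that RNA made by the embryo reads with T-to-C changes. Labelled RNA is read as zygotic and unlabelled RNA as maternal below, although per-cell estimates can leave part of the zygotic RNA unlabelled, so that the maternal part of a gene may hold some of it. The comparison rests on 4 IAA libraries, replicates A and B of 30% epiboly and replicates A and B of 50% epiboly, and each library holds both cell types, so that the types were paired by library. The paper describes different dissociation methods for the epiboly replicates, by hand and by shaking, and reports a batch separation between the methods. The labels do not say which letter had which method, so A and B may differ in it as well. Each library is a suspension of many embryos, and nothing in the labels says whether the A and B libraries came from separate clutches. The p-values therefore speak for these libraries only.

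As background, the margin of the zebrafish blastula gives rise to mesoderm and endoderm. Nodal ligands made at the margin induce mesendoderm, BMP ligands pattern it from ventral to dorsal through homeobox repressors such as Vox, Vent and Ved, and Wnt and FGF signals keep marginal cells in a posterior mesodermal state. Cells that leave this state move inward at gastrulation, switch on T-box and Mesp factors and become paraxial and lateral mesoderm, from which muscle, blood and heart arise.

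The 4 libraries gave 78, 31, 278 and 12 Muscle Blood cells, against 331, 91, 497 and 49 Ventral Margin cells. Here and below, 4 values in a row are 30% epiboly A, 30% epiboly B, 50% epiboly A and 50% epiboly B. Summed over cells, Muscle Blood held 246416, 134827, 848212 and 30025 unique molecular identifiers (UMIs, each a captured RNA molecule), and Ventral Margin held 881226, 429033, 1445949 and 105830. A single UMI in Muscle Blood of 50% epiboly B is worth 33.3 CPM (UMIs scaled to a common library total of 1e6), so values of that library are coarse. The median cell held 2544, 3400, 2722 and 2556 UMIs in Muscle Blood and 2234, 4499, 2468 and 1901 UMIs in Ventral Margin. No cell barcode was shared between libraries. Among the cells of both types together, Muscle Blood made up 19.1%, 25.4%, 35.9% and 19.7%, with 95% Wilson intervals of 15.6 to 23.2%, 18.5 to 33.8%, 32.6 to 39.3% and 11.6 to 31.3%; these intervals cover counting error only.

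The name Muscle Blood was checked against markers. Early paraxial mesoderm genes were present, but the regulators of blood and muscle differentiation were at or near 0. Of 14 regulators of blood and endothelium, 9 were in the table, and together they had 25 UMIs in Muscle Blood and 67 in Ventral Margin. The blood regulator tal1 had 2 UMIs in Muscle Blood and 0 in Ventral Margin, while gata1a, spi1b and etv2 had 0 in both. gata2a went the other way, with 2 UMIs in Muscle Blood and 30 in Ventral Margin. The rest had 2 and 5 (lmo2), 13 and 24 (klf17), 6 and 6 (drl) and 0 and 2 (npas4l). All UMIs of the types came to 1259480 and 2862038. The myogenic factors myf5 and myod1 and the somite gene meox1 also had 0 UMIs in both types, which allows up to 2.38 CPM in Muscle Blood and 1.05 CPM in Ventral Margin, the level of 3 counts in all UMIs of a type. Muscle Blood is therefore used below as the name of the annotated cells and not as a state of differentiation.

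Across the transcriptome, 124 genes were higher and 54 lower in Muscle Blood than in Ventral Margin among 3607 tested (edgeR's quasi-likelihood test on summed UMIs with the library as a block, Benjamini-Hochberg adjusted p below 0.05). The share called was 4.93% of tested genes, 3.44% in the higher and 1.5% in the lower direction, and 376 genes (10.4%) had an unadjusted p below 0.05. The gene lists used below were chosen with earlier results of these data known, so their counts of called members are not read as enrichment. Of the 178 called genes, 137 had the same direction in 4 of 4 libraries (17.5% of all tested genes did). The test used the same libraries, so nothing is read from that count. The authors grouped the cells by the total RNA of the same cells, so these genes describe the 2 groups. A small p adds no independent evidence, nor does it mean that a difference repeats in each library. For acvr1ba and mixl1, both called, the direction did not hold in 4 of 4 libraries. Leaving out 50% epiboly A, the library with most Muscle Blood cells, left 90 called genes. Other fits called fewer genes: DESeq2 109, edgeR with no replicate block 66, and edgeR with a block of letter and stage in place of library 94. Where the calls of genes named below were lost in these 3 fits or among cells of the pseudotime range that both types share, this is given with the gene or at the end of its paragraph. The shared range is the overlap of the 10th to 90th percentiles of the types in a library. It kept 38, 14 and 146 Muscle Blood and 239, 28 and 293 Ventral Margin cells, and none of 50% epiboly B. The part of this loss of cells in the lost calls was not tested.

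Genes of mesendoderm and genes of cell shape and contact were both found among the 12 leading genes of Muscle Blood. gata5 and gata6, zinc finger factors of endoderm and heart precursors, stood out by fold. Ventral Margin held only 16 UMIs of gata5 and 11 of gata6 in all, so the size of these folds is uncertain. gata5 had 203, 185, 196 and 233 CPM in Muscle Blood and 7.94, 0, 5.53 and 9.45 CPM in Ventral Margin. gata6 had 223, 156, 173 and 99.9 CPM in Muscle Blood and 5.67, 0, 3.46 and 9.45 CPM in Ventral Margin. Every Muscle Blood value lay above every Ventral Margin value for both genes, and the log2 fold changes were 5.11 ± 0.28 and 5.51 ± 0.31 (standard error, as for every log2 fold change below). The forkhead gene foxa had the lowest p of all genes, with 657, 682, 534 and 566 CPM in Muscle Blood against 68.1, 58.3, 35.3 and 18.9 CPM in Ventral Margin (3.65 ± 0.15, edgeR adjusted p = 8.95e-130). The unnamed locus FP102169.1 and the Iroquois homeobox gene irx7 were higher by 3.01 ± 0.14 and 3.81 ± 0.21. Genes of cell shape and contact were among the same leading group. The ephrin ligand efnb2a, which keeps cell populations apart, had 203, 245, 289 and 133 CPM in Muscle Blood against 5.67, 9.32, 5.53 and 0 CPM in Ventral Margin (5.36 ± 0.26). rnd1b was higher by 2.58 ± 0.13. fscn1a, which bundles actin filaments, was abundant in both types, with 2346, 1980.3, 2268 and 1699 CPM in Muscle Blood and 1109.8, 797, 856 and 614 CPM in Ventral Margin (1.30 ± 0.07). dkk1b, a secreted Wnt antagonist, and ism1, a secreted protein, were higher by 3.38 ± 0.15 and 4.25 ± 0.24. Values of the 2 types did not overlap for any of the 12 leading genes (3.16% of all tested genes did not overlap). The 12 were chosen for a low p and 1 sign in every library, so nothing is read from that count.

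**Figure D1:**
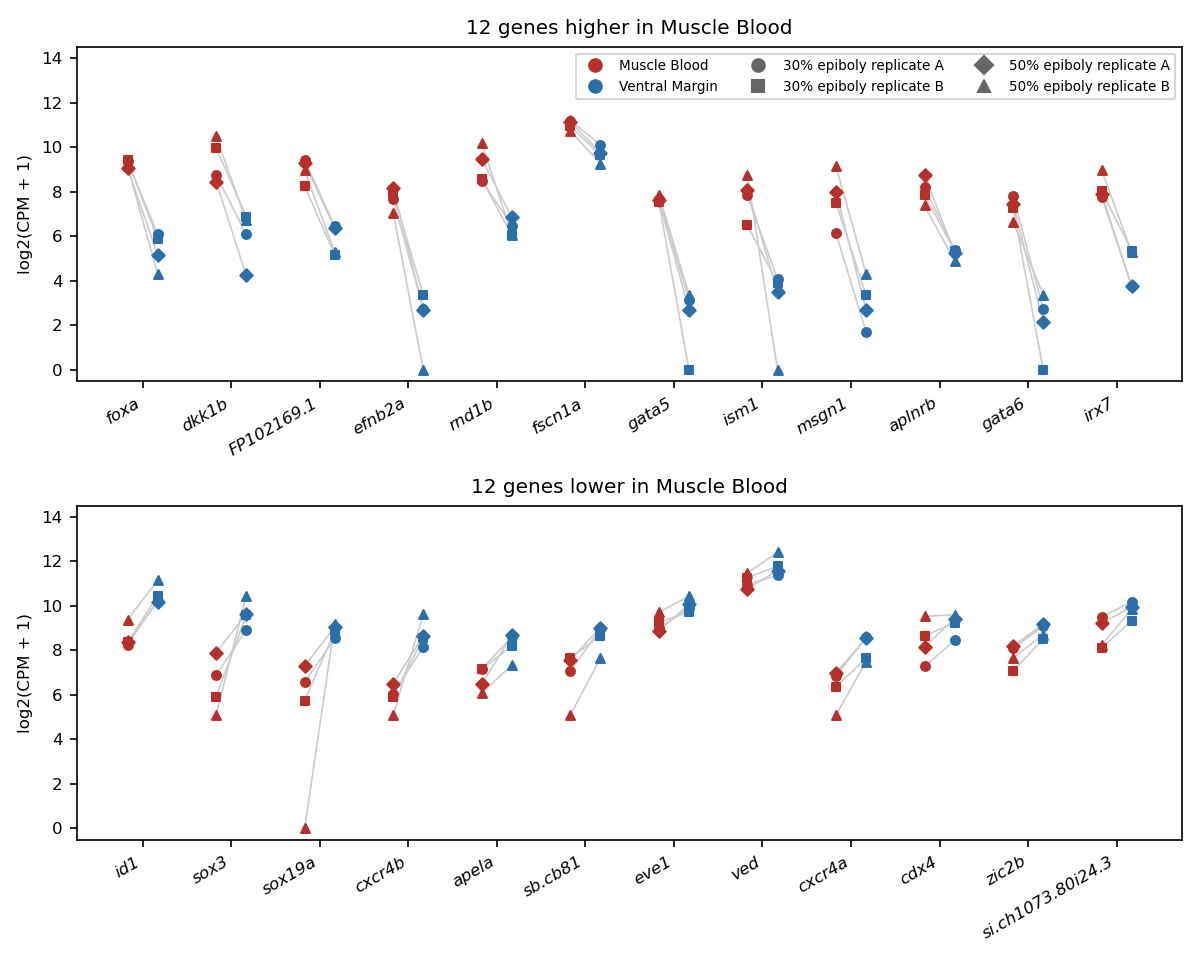
Total expression, as log2(CPM + 1), of the 12 genes of lowest p in each direction; each marker is a library, red for Muscle Blood and blue for Ventral Margin, and grey lines join the 2 types of a library. The 12 genes of the upper panel do not overlap between the types, and 8 of the 12 in the lower panel do not (3.16% of all tested genes did not overlap).

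Early paraxial mesoderm genes were mostly higher in Muscle Blood. msgn1, a bHLH factor that drives marginal progenitors towards presomitic mesoderm, had 69.0, 178, 253 and 566 CPM in Muscle Blood and 2.27, 9.32, 5.53 and 18.9 CPM in Ventral Margin (5.09 ± 0.28). Its level was higher in both 50% epiboly libraries than in the 30% epiboly library of the same letter, in Muscle Blood and in Ventral Margin. The change of its difference between the types with stage was not called (0.90 on the log2 scale). Muscle Blood of 50% epiboly B held 17 UMIs of msgn1. mespab, a segmentation bHLH factor, was higher by 4.21 ± 0.25, and foxc1a, a forkhead factor of somitic mesoderm, by 3.72 ± 0.39. mespaa and ripply1 missed the filter on low counts, and they had 28.4, 96.4, 145 and 699 CPM and 20.3, 14.8, 82.5 and 199.8 CPM in Muscle Blood. In Ventral Margin they had 5 UMIs and 1 UMI in all. snai1a, a repressor of E-cadherin, and pcdh8, a protocadherin of paraxial mesoderm, were higher by 2.24 ± 0.13 and 1.85 ± 0.17. The T-box factors tbxta and tbx16 were high in both types and differed little. tbx16l and tbx6 were sparse and missed the filter on low counts. tbx16l had 8.12, 0, 53.1 and 33.3 CPM in Muscle Blood and 4.54, 2.33, 15.9 and 0 CPM in Ventral Margin. tbx6 had 2 UMIs in Muscle Blood and 0 in Ventral Margin. tbxta, needed for posterior mesoderm, had 2455, 2811, 2146 and 3397 CPM in Muscle Blood and 2121, 1823, 1791 and 2069 CPM in Ventral Margin (0.38 ± 0.06). tbx16, needed for mesodermal cells to leave the midline, was higher by 0.28 ± 0.06, and its call was lost without 50% epiboly A (0.29, edgeR adjusted p = 0.12). The clock gene her7 and the Notch ligand dlc went the other way, by −0.64 ± 0.17 and −0.997 ± 0.285. Without 30% epiboly A they were no longer called (−0.51 and −0.94), nor without 50% epiboly A (−0.60 and −0.86). In 50% epiboly B her7 was higher in Muscle Blood, at 333 against 132 CPM. The tbxta call was lost with no replicate block (0.45), with the block of letter and stage (0.44) and in the shared pseudotime range (0.12, edgeR adjusted p = 0.55). tbx16, her7 and dlc were called in none of the 3 other fits, and tbx16 and dlc were not called in the shared pseudotime range. Of the 23 genes listed as T-box and paraxial mesoderm regulators, 11 were tested, 7 were higher, 2 were lower and 2 were not called, with a median of 0.38 on the log2 scale beside 0.00 over all tested genes (−0.0039). Among all tested genes, 3.44% were higher and 1.5% lower.

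The Nodal pathway differed at the level of ligands, antagonist and targets, while its transcriptional partner went the other way. The ligand gene ndr1 had 134, 126, 95.5 and 99.9 CPM in Muscle Blood and 46.5, 16.3, 22.8 and 9.45 CPM in Ventral Margin (2.02 ± 0.24). The antagonist lft1, itself a Nodal target, had 93.3, 185, 81.3 and 99.9 CPM in Muscle Blood and 37.4, 28.0, 12.4 and 18.9 CPM in Ventral Margin (2.22 ± 0.26). The values of neither gene overlapped between the types (3.16% of all tested genes did not overlap), and both were named for calls on these values. The second ligand gene ndr2 and the type I receptor gene acvr1ba were higher by 0.78 ± 0.17 and 0.67 ± 0.14. ndr2 had 195, 185, 162 and 0 CPM in Muscle Blood and 163, 46.6, 88.5 and 47.2 CPM in Ventral Margin, higher in 3 of 4 libraries. acvr1ba had 373, 126, 277 and 66.6 CPM in Muscle Blood and 196, 133, 174 and 94.5 CPM in Ventral Margin, higher in 2 of 4 libraries, both of letter A. The ndr2 call was lost without 50% epiboly A (0.69), and the acvr1ba call without 30% epiboly A (0.53) or 50% epiboly A (0.62). foxh1, the forkhead partner of the Nodal-activated Smads, had 73.0, 29.7, 50.7 and 66.6 CPM in Muscle Blood and 102, 109.5, 111 and 104 CPM in Ventral Margin (−0.99 ± 0.22, −0.86 and no longer called without 50% epiboly A). Among the targets, mixl1 had 1144, 1476, 685 and 167 CPM in Muscle Blood and 659, 473, 255 and 179.5 CPM in Ventral Margin (1.25 ± 0.09), so that the direction held in 3 of 4 libraries. ndr2, acvr1ba and foxh1 were called in none of the 3 other fits, ndr2 was not called in the shared pseudotime range, and mixl1 was not called with no replicate block. foxa3, a forkhead gene, was higher by 2.79 ± 0.39. Of the 6 tested Nodal targets and endoderm regulators, 5 were higher and 1, the notochord factor noto, was lower (−1.54 ± 0.28), beside 3.44% and 1.5% of all tested genes. The endoderm determinants were at or near 0: sox32 had 1 UMI in Muscle Blood and 4 in Ventral Margin, and sox17 had 0 in both. The authors set cells with sox32 apart as their own group. The summed level of the endoderm list was 633 to 1951 CPM in Muscle Blood and 378 to 1074 CPM in Ventral Margin. Markers of dorsal margin and notochord also moved with the comparison, at 815 to 1732 CPM in Muscle Blood and 193 to 375 CPM in Ventral Margin, mostly through dkk1b and the LIM homeobox gene lhx1a (3.24 ± 0.20). chrd and gsc, which missed the filter on low counts, were sparse. chrd had 12.2, 7.42, 23.6 and 99.9 CPM in Muscle Blood and 14.8, 6.99, 6.92 and 0 CPM in Ventral Margin. gsc had 28.4, 22.3, 37.7 and 0 CPM in Muscle Blood and 10.2, 2.33, 9.68 and 0 CPM in Ventral Margin. The part of cells of those types in the result was not tested.

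FGF and Wnt genes were also higher in Muscle Blood in part. The FGF ligand genes fgf3 and fgf8a were higher by 2.24 ± 0.19 and 1.45 ± 0.17, and fgf24 had a difference of 0.67 and was not called. fgf3 had 219, 326, 167 and 33.3 CPM in Muscle Blood and 69.2, 76.9, 22.1 and 18.9 CPM in Ventral Margin. The genes that respond to FGF did not move as a group: of 6 tested, il17rd was higher (1.09 ± 0.24), etv5b was lower (−0.49 ± 0.16) and 4 were not called, with a median of −0.24. Without 30% epiboly B, 50% epiboly A or 50% epiboly B, etv5b was not called (−0.44, −0.31 and −0.47). Among Wnt genes, the receptor gene fzd7a had 154, 89.0, 249.9 and 499.6 CPM in Muscle Blood and 7.94, 14.0, 23.5 and 47.2 CPM in Ventral Margin (3.49 ± 0.23). wnt11f2, a ligand of the branch that steers gastrulation movements, was higher by 0.51 ± 0.08. The target genes sp5a and nkd1 were higher by 2.24 ± 0.18 and 1.95 ± 0.34, while sp5l, axin2 and notum1a were not called. In all, 5 of 7 tested Wnt ligands and transducers and 2 of 6 tested Wnt targets were higher, and 1 target, cdx4, was lower. The shares over all tested genes, beside these and the FGF counts, were 3.44% higher and 1.5% lower. The calls of fzd7b and ctnnb2 (0.57 and 0.30) did not hold when libraries were left out, at 0.10 and 0.35 without 50% epiboly A, 0.58 and 0.20 without 30% epiboly B, 0.57 for fzd7b without 50% epiboly B and 0.30 for ctnnb2 without 30% epiboly A. il17rd, etv5b, fzd7b and ctnnb2 were called neither in any of the 3 other fits nor in the shared pseudotime range. The wnt11f2 call was lost with no replicate block and with the block of letter and stage (0.46 in both).

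Ventral Margin, in turn, was higher in part of the BMP responses, ventral homeobox genes and genes shared with ectoderm. id1, an inhibitor of bHLH factors that BMP switches on, had 304, 326, 330.1 and 666 CPM in Muscle Blood and 1202, 1392, 1151 and 2249 CPM in Ventral Margin (−1.87 ± 0.09, edgeR adjusted p = 1.13e-88). Of the ventral homeobox genes, eve1 had 507, 608, 469 and 833 CPM in Muscle Blood and 957, 844, 1068 and 1379.6 CPM in Ventral Margin (−0.95 ± 0.09). ved was among the most abundant regulators in both types, and it was lower in each library although the types overlapped (−0.63 ± 0.06). vox was lower by 0.56 ± 0.09 on the log2 scale, a call lost without 50% epiboly A (−0.33), and vent, at 0.17 ± 0.14, was not called. The BMP targets msx1b and id2a were lower too (−2.04 ± 0.32 and −1.11 ± 0.31), and so was the receptor-like inhibitor bambia (−0.35 ± 0.09). The id2a call was lost without 30% epiboly B (−0.85), and the bambia call without 30% epiboly A (−0.37) or 50% epiboly A (−0.17). The BMP genes did not share 1 direction. bmp2b was higher in Muscle Blood, with 150.2, 178, 125 and 266 CPM there and 76.0, 95.6, 61.6 and 47.2 CPM in Ventral Margin (1.07 ± 0.19), and so was the target id3 (1.18 ± 0.15). bmp4 was lower (−0.64 ± 0.19), a call lost without 50% epiboly A (−0.29), and bmp7a had a difference of 0.20 ± 0.12 and was not called. Over the BMP antagonists and targets, 1 of 7 tested was higher and 4 were lower (3.44% and 1.5% of all tested genes), with a median of −0.62. osr1, one of the genes by which the authors named their groups and listed here as a ventral margin marker, was higher in Muscle Blood, with 256, 438, 387 and 399.7 CPM there and 109, 65.3, 65.7 and 56.7 CPM in Ventral Margin (2.22 ± 0.15). In 50% epiboly B, vox, bambia and bmp4 were higher in Muscle Blood, at 2298, 899 and 133 CPM against 2277, 690 and 66.1 CPM. vox, bmp4, bambia and id2a were called in none of the 3 other fits, bmp4 and id2a were not called in the shared pseudotime range, and eve1, ved and bmp2b were not called with no replicate block. eve1, tbxta, noto and sox3 were also among the genes used for naming. Of 11 tested ventral margin markers, 3 were higher, 5 lower and 3 not called in Muscle Blood (3.44% and 1.5% of all tested genes were higher and lower). The listed ventral margin markers summed to 6392 to 11524 CPM in Muscle Blood and 8000 to 12482 CPM in Ventral Margin, which overlap. Ventral Margin is therefore also used as the name of the annotated cells.

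**Figure D2:**
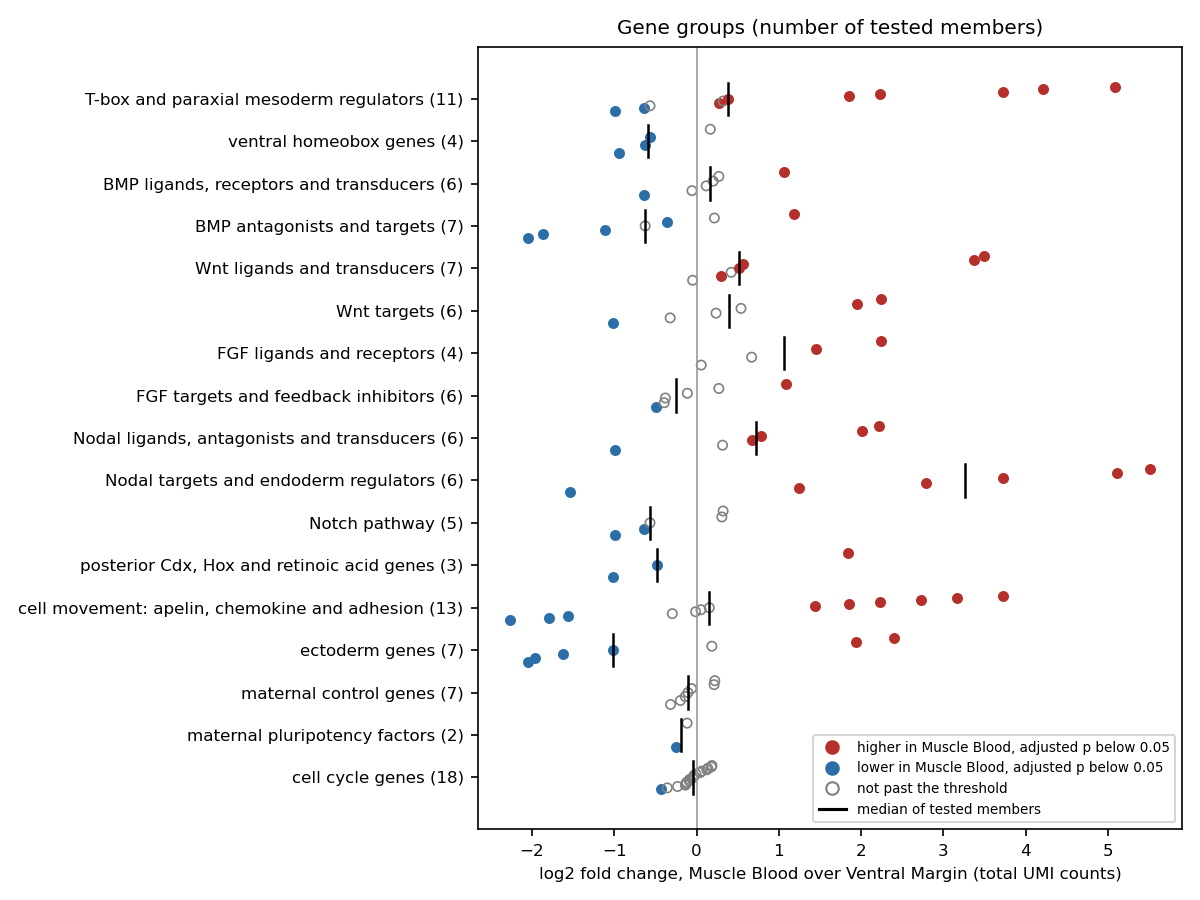
Log2 fold change of Muscle Blood over Ventral Margin for the tested members of each gene group; filled points passed an adjusted p of 0.05, open points did not, and the black bar is the group's median. Nodal targets and endoderm regulators have the highest median and ectoderm genes the lowest. Of 18 cell cycle genes, 17 are open points near 0, where 4.93% of all tested genes were called.

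Posterior and retinoic acid genes were split. cdx4, a homeobox gene of the posterior body, had 154, 401, 284 and 733 CPM in Muscle Blood and 347, 604, 683 and 775 CPM in Ventral Margin (−1.02 ± 0.11), lower in 4 of 4 libraries with overlapping values. aldh1a2, which makes retinoic acid, was higher in Muscle Blood by 1.84 ± 0.25. It had 60.9, 74.2, 129 and 133 CPM in Muscle Blood and 18.2, 11.7, 40.1 and 18.9 CPM in Ventral Margin. cyp26a1, which breaks retinoic acid down, differed by −0.49 ± 0.15, and its call was lost without 30% epiboly A (−0.51) or 50% epiboly A (−0.31). It was called neither in any of the 3 other fits nor in the shared pseudotime range, and cdx4 was not called with no replicate block.

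Receptors and ligands of 2 guidance systems went in opposite directions. The apelin receptor genes aplnra and aplnrb, needed for marginal cells to move inward, were higher in Muscle Blood by 3.72 ± 0.23 and 3.16 ± 0.18. aplnrb had 292, 229.9, 426 and 167 CPM in Muscle Blood and 40.9, 39.6, 37.3 and 28.3 CPM in Ventral Margin. Their ligand gene apela was higher in Ventral Margin, with 142, 141, 88.4 and 66.6 CPM in Muscle Blood and 386, 294, 407 and 161 CPM in Ventral Margin (−1.79 ± 0.15). The chemokine pair had the reverse arrangement. The receptor genes cxcr4a and cxcr4b were lower in Muscle Blood by 1.57 ± 0.15 and 2.26 ± 0.16 on the log2 scale, while the ligand genes cxcl12a and cxcl12b were higher by 1.44 ± 0.15 and 2.73 ± 0.31. cxcr4b had 64.9, 59.3, 89.6 and 33.3 CPM in Muscle Blood and 285, 373, 399.7 and 794 CPM in Ventral Margin. The values of the types did not overlap for any of these 7 genes (3.16% of all tested genes did not overlap). They were named because they were called on the same values, so nothing is read from that count. Of 13 tested genes listed for cell movement, these guidance genes and adhesion genes among them, 6 were higher, 3 lower and 4 not called in Muscle Blood. Over all tested genes, 3.44% were higher and 1.5% lower. cdh1, epcam, itga5 and cfl1 were not called, while the protocadherin gene pcdh8, given above, was higher.

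Of the SoxB1 genes, which keep cells in an uncommitted or neural state, sox3, sox19a and sox2 were lower in Muscle Blood. sox3 had 118, 59.3, 236 and 33.3 CPM in Muscle Blood and 480.0, 758, 796 and 1398 CPM in Ventral Margin (−2.05 ± 0.12). sox19a and sox2 were lower as well (−1.97 ± 0.14 and −1.63 ± 0.28). The Zic zinc finger genes did not follow them together: zic2b was lower (−1.01 ± 0.11), and zic2a was higher (2.40 ± 0.16). Of 7 ectoderm genes tested, 4 were lower and 2 higher in Muscle Blood (1.5% and 3.44% of all tested genes). The summed level of the ectoderm markers was 633 to 1073 CPM in Muscle Blood and 1854 to 2731 CPM in Ventral Margin. Markers of the enveloping layer, the outer epithelium of the embryo, summed to 349 to 667 CPM in Muscle Blood and 410 to 595 CPM in Ventral Margin. Among them the keratin gene krt18a.1 was higher (0.76 ± 0.19), with 187, 7.42, 160 and 33.3 CPM in Muscle Blood and 106, 23.3, 93.4 and 9.45 CPM in Ventral Margin, but it was called neither in any of the 3 other fits nor in the shared pseudotime range. Markers of the yolk syncytial layer, a tissue at the yolk surface, summed to 2930 to 6328 CPM in Muscle Blood and 2191 to 3874 CPM in Ventral Margin, nearly all of it from the apolipoprotein gene apoeb (0.50 ± 0.06, not called with no replicate block or with the block of letter and stage). The part of cells of these layers in the results was not tested. The transcripts sb.cb81 and si.ch1073.80i24.3, which the files do not name further, were lower by 1.47 ± 0.13 and 0.77 ± 0.09 on the log2 scale. sox2, zic2b and si.ch1073.80i24.3 were not called with no replicate block.

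With 4.93% of all tested genes called, nothing is read from the small counts called among cell cycle and maternal control genes. Of 18 cell cycle genes tested, 17 were not called and mcm6, a helicase subunit, was lower (−0.44 ± 0.14), a call lost without 30% epiboly A (−0.39) or 30% epiboly B (−0.40). Of 7 tested maternal control genes, none was among the called genes, and their median was −0.10. Of 2 tested maternal pluripotency factors, 1 was not called and pou5f3 was lower by 0.25 ± 0.07 on the log2 scale. The pou5f3 call was lost without 30% epiboly A (−0.22) or 30% epiboly B (−0.25). Neither mcm6 nor pou5f3 was called in any of the 3 other fits, and mcm6 was not called in the shared pseudotime range.

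Most leading genes of Muscle Blood had a higher mean in another annotated type, although the means rest on unlike sets of libraries. Endoderm (B) entered from 30% epiboly A and 50% epiboly A alone, with 25 and 10 cells. Prechordal Plate had 5 cells and 10453 UMIs in 50% epiboly B. Over the 15 annotated cell types, taking means over libraries with at least 5 cells, 3 of the 12 leading genes were highest in Muscle Blood (msgn1, aplnrb and irx7), 6 in Prechordal Plate and 3 in Endoderm (B). msgn1 averaged 267 CPM (69.0 to 566) in Muscle Blood, with Endoderm (A) next at 187 CPM (93.1 to 235), so these 2 ranges overlapped. Of the 12 genes lower in Muscle Blood, 4 (apela, eve1, ved and cdx4) were highest in Ventral Margin, 3 in Neural Ectoderm and 2 in Non Neural Ectoderm. For tbxta, tbx16 and wnt11f2, Muscle Blood had the highest mean of the 15 types and Ventral Margin the next.

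Shares of cells with a UMI gave the same order. After thinning every cell to 1500 UMIs, which left out 74 Muscle Blood and 246 Ventral Margin cells, foxa was found in 54.8% of Muscle Blood and 5.40% of Ventral Margin cells, and in 2.86% of cells of the enveloping layer (EVL). Without thinning, it was found in 71.4% of Muscle Blood cells, at median depths of 2735 UMIs in Muscle Blood, 2466 in Ventral Margin and 2540 in EVL. For msgn1 the thinned shares were 27.7% of Muscle Blood and 0.554% of Ventral Margin cells and 0 of 210 EVL cells, which allows a share of up to 1.43%. Within Muscle Blood the msgn1 share was 9.52%, 25.9%, 30.4% and 81.8%, of 63, 27, 224 and 11 thinned cells. For tbxta it was 91.1% of Muscle Blood and 84.6% of Ventral Margin cells, against 18.6% in EVL.

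Labelling separates maternal from zygotic RNA and was not used to group the cells. The labelled fraction of a gene is the share of its UMIs assigned to newly made RNA. Genes that differed between the types were mostly zygotic. They were called on the total RNA that also formed the groups, so this describes the called genes and is no independent support for them. The 109 genes higher in Muscle Blood with at least 10 UMIs behind the value had a median labelled fraction of 86.2% in Muscle Blood, with library medians of 86.2%, 93.2%, 85.1% and 91.7%. The 52 genes higher in Ventral Margin had a median of 88.5% in Ventral Margin, with library medians of 86.0%, 93.1%, 87.0% and 90.4%. Tested genes that were not called had medians of 30.2% in Muscle Blood and 28.8% in Ventral Margin. A labelled fraction above 65% was found for 95 of those 109 genes and for 386 of 1799 genes not called in Muscle Blood, and fractions below 5% for 3 and 337. Each class above was read in the type where it is high, where more of its genes reach 10 UMIs. In Ventral Margin, 74 of the 124 genes higher in Muscle Blood had a value. Their median was 82.2%, and 55 lay above 65%, beside 488 of 2345 genes not called. In Muscle Blood, 44 of the 54 genes higher in Ventral Margin had a value, with a median of 87.9%. The injected unlabelled mRNAs, which show the background of the measure, read 0 to 1.67% in Muscle Blood and 0.487 to 1.13% in Ventral Margin.

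**Figure D3:**
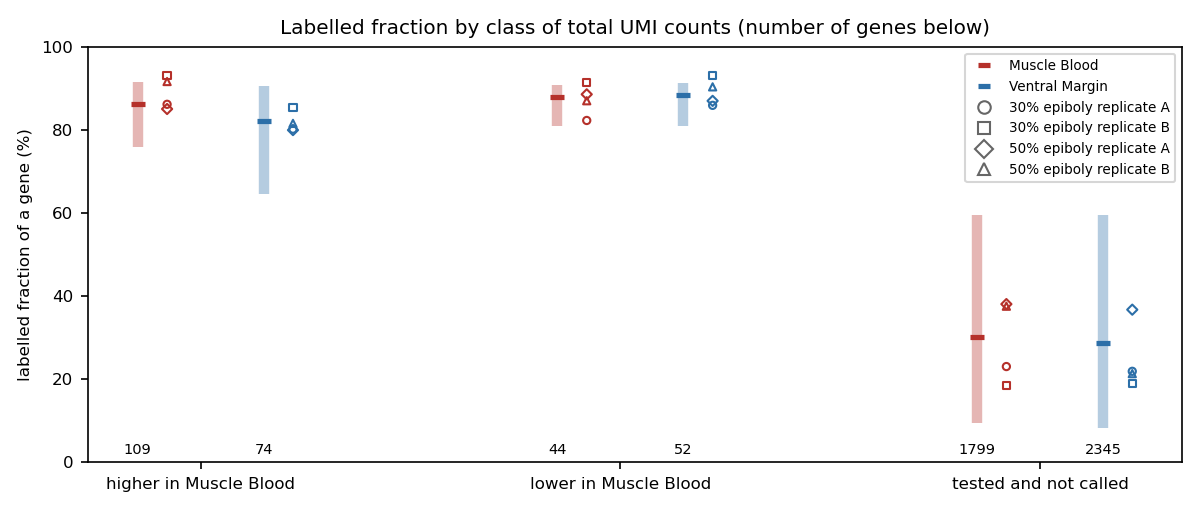
Labelled fraction of genes, in percent, by their class in total UMI counts; the dash is the median over genes, the bar the quartiles and open markers the medians within libraries, red for Muscle Blood and blue for Ventral Margin, with the number of genes below. Both classes of called genes have medians above 80%, and genes not called have medians near 30%.

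ddx4, a helicase of the germ plasm and one of the few called genes that were almost wholly maternal, was 0.813% labelled in Muscle Blood and 0.741% in Ventral Margin, and had 682, 712, 441 and 167 CPM in Muscle Blood and 386, 473, 263 and 227 CPM in Ventral Margin (0.73 ± 0.10). It was higher in Muscle Blood in 3 of 4 libraries, and its call was lost with no replicate block (0.66) and with the block of letter and stage (0.67). The germ plasm gene gra was higher by 0.72 ± 0.17, and its call was lost without 30% epiboly A (0.56) or 50% epiboly A (0.80) and in the 3 other fits. In 50% epiboly B gra was lower in Muscle Blood, at 33.3 against 113 CPM. The defining germ cell markers nanos3 and dnd1 had 28 and 27 UMIs in Muscle Blood and 48 and 48 in Ventral Margin, not scaled to the unequal totals. nanos3 had 28.4, 22.3, 21.2 and 0 CPM in Muscle Blood and 12.5, 9.32, 13.8 and 123 CPM in Ventral Margin. It was thus higher in Muscle Blood in each library except 50% epiboly B. By CPM, dnd1 was higher in Muscle Blood in both libraries of letter A and lower in both of letter B. The summed germ cell list was 199.8 to 1016 CPM in Muscle Blood and 374 to 662 CPM in Ventral Margin. The part of germ cells in these values was not tested.

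cth1, a zinc finger protein of the family that destabilises mRNA, was chosen because the study discusses it for these cells, so its values are not independent of the study. It was higher in Muscle Blood with 584, 371, 436 and 66.6 CPM there and 186, 65.3, 83.7 and 56.7 CPM in Ventral Margin (2.09 ± 0.14). Its labelled fraction was 79.4%, 84.9% and 88.6% in Muscle Blood of 30% epiboly A, 30% epiboly B and 50% epiboly A, against 57.5%, 0% and 37.0% in Ventral Margin, from 102, 33 and 217 UMIs in Muscle Blood and 41, 11 and 32 UMIs in Ventral Margin. In 50% epiboly B the type sums held too few UMIs for a fraction. The zygotic part was 464, 315 and 387 CPM in Muscle Blood and 107, 0 and 31.0 CPM in Ventral Margin. The maternal part was 120, 55.9 and 49.7 CPM in Muscle Blood and 79.1, 65.3 and 52.7 CPM in Ventral Margin. The zygotic part was thus higher in Muscle Blood within each of the 3 libraries, and the maternal parts overlapped between the types. The zygotic difference was not called, as 1 of 876 genes was, id1. The 0% in Ventral Margin of 30% epiboly B rests on 11 UMIs. The difference in labelled fraction was 52.8 ± 13.7 percentage points (limma adjusted p = 0.88), and it did not pass the adjustment. aif1l, the other gene named for this reason, was not called in total counts (0.15 ± 0.06, edgeR adjusted p = 0.21, and 0.042 without 50% epiboly B, at 0.16). Its labelled fraction was 24.2%, 18.4%, 38.4% and 33.6% in Muscle Blood and 21.5%, 15.5%, 30.2% and 26.5% in Ventral Margin, higher in Muscle Blood in 4 of 4 libraries. That difference, 5.25 ± 1.97 points, did not pass either (limma adjusted p = 0.88).

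Over all genes with enough UMIs, no labelled fraction passed the adjusted threshold between the types. Of 876 genes with a value in at least 3 libraries, 0 (0.0%) passed an adjusted p of 0.05 in limma and 43 (4.91%) had an unadjusted p below 0.05; no other tool was run on the fractions. On simulated data of this size the test recovered 22.0% of differences of 10 points and 57.0% of differences of 20 points. The simulated types differed by counting error and the added difference only, and added differences were cut where they passed the possible range. The recovered shares are therefore not the power in these data. The genes of lowest p with a higher fraction in Muscle Blood were ctsla, coq10b and lsm14ab. ctsla, a lysosomal protease gene, was 37.5%, 29.0%, 34.8% and 28.5% labelled in Muscle Blood and 25.6%, 15.7%, 23.4% and 13.5% in Ventral Margin, a difference of 12.9 ± 1.71 points. Those with a lower fraction were sem1, kpnb3 and zcchc10, with differences of −15.3 ± 2.11, −12.9 ± 2.66 and −13.7 ± 2.89 points in 3 libraries each. fscn1a, among the leading genes above, was 87.2%, 76.8%, 90.8% and 92.6% labelled in Muscle Blood and 72.8%, 55.7%, 81.2% and 51.5% in Ventral Margin, higher in 4 of 4 libraries and not called (21.5 ± 5.80 points, limma adjusted p = 0.88).

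Split into parts, maternal expression had 0 of 876 called genes (0.0%, 46 or 5.25% at an unadjusted p below 0.05) and zygotic expression had 1 (0.114%, 71 or 8.11% unadjusted), in limma on log2(CPM + 1). Without 50% epiboly B, 3 genes passed in the maternal part, and without 30% epiboly A, 30% epiboly B or 50% epiboly B, 2 passed in the zygotic part. The zygotic call was id1, at 274, 305, 279.97 and 586 zygotic CPM in Muscle Blood and 1018, 1275, 1004 and 1929 zygotic CPM in Ventral Margin (−1.88 ± 0.08, limma adjusted p = 0.0034). Its labelled fraction was alike in the types, at 84.8 to 93.4% in Muscle Blood and 84.7 to 91.6% in Ventral Margin. id1 also led the lower side of the maternal part, which in a gene this strongly labelled cannot be told apart from zygotic RNA read as unlabelled. The next genes by p in the maternal part were ddx4, myl12.1 and tpd52l2b on the higher side and cdca7a and asb11, after id1, on the lower side. In the zygotic part they were fscn1a, sdc4 and ctsla on the higher side and eve1 and chmp2bb on the lower side. Among the 34 genes higher in Muscle Blood in total counts that had both parts, 34 had more zygotic RNA in Muscle Blood and 19 had more maternal RNA, with medians of 0.76 and 0.20 on the log2 scale, beside 0.01 and −0.03 over the 876 genes. Of the 876 genes, 442 had more zygotic and 383 more maternal RNA in Muscle Blood. Among the 25 genes lower in Muscle Blood that had both parts, 0 had more zygotic RNA there and 4 had more maternal RNA. Their medians were alike in the 2 parts, at −0.56 (zygotic) and −0.58 (maternal). Since the genes of both classes were chosen by their total, the sum of the parts is no test.

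**Figure D4:**
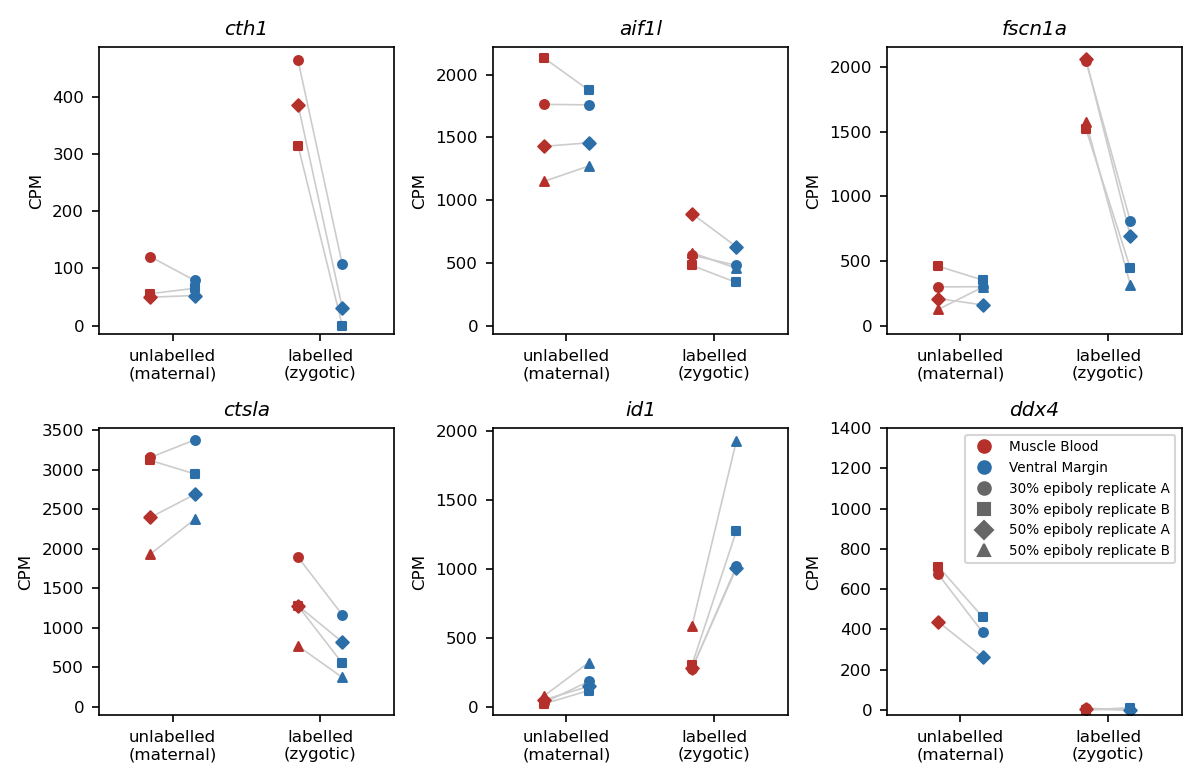
Unlabelled (maternal) and labelled (zygotic) CPM of 6 genes; each marker is a library, red for Muscle Blood and blue for Ventral Margin, with lines joining the types of a library (3 libraries for cth1 and ddx4). For cth1, fscn1a and ctsla the zygotic parts are higher in Muscle Blood within each library and the maternal parts overlap between the types. ddx4 is almost wholly unlabelled, so its maternal part nearly repeats its total and is higher in Muscle Blood in the 3 libraries shown. In 50% epiboly B, not shown for ddx4, its total was lower in Muscle Blood (167 against 227 CPM). No maternal part was called, and of the zygotic parts only that of id1.

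Taken over all genes, the labelled fraction was 40.5%, 34.7%, 52.0% and 47.6% in Muscle Blood and 40.9%, 34.8%, 50.9% and 35.2% in Ventral Margin. The mean difference was 3.27 ± 6.12 points (SD, n = 4, higher in 2 of 4 libraries, exact two-sided sign-flip test p = 0.5, where the smallest possible p is 0.13). The difference lay in 1 library: 50% epiboly B, with 12 Muscle Blood cells, differed by 12.4 points, and without it the mean was 0.226 points. These values used gene and cell pairs with at least 3 UMIs, and the signs depended on that limit. With pairs of 1 or more UMIs the differences were 0.481, 0.0628, 1.11 and 11.4 points. With pairs of exactly 3 UMIs they were 0.694, 0.49, 1.36 and 12.4 points. Both measures were higher in Muscle Blood in 4 of 4 libraries (exact p = 0.13, the smallest possible). Among cells of the pseudotime range that both types share, the mean over 3 libraries was −2.89 points, lower in Muscle Blood in 3 of 3 (exact p = 0.25, the smallest possible). In 50% epiboly B the types shared no such range.

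The authors' pseudotime, an age in pseudo-minutes that they computed from the expression of the same cells, had medians of 332, 337, 341 and 342 in Muscle Blood and 325, 324, 334 and 331 in Ventral Margin. Muscle Blood was later by 9.53 ± 2.87 pseudo-minutes (SD, n = 4, higher in 4 of 4 libraries, exact p = 0.13, the smallest possible). Cells that the authors placed on the trajectory they call endolpm made up 57.7%, 41.9%, 61.5% and 41.7% of Muscle Blood and 21.1%, 28.6%, 11.9% and 12.2% of Ventral Margin cells.

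**Figure D5:**
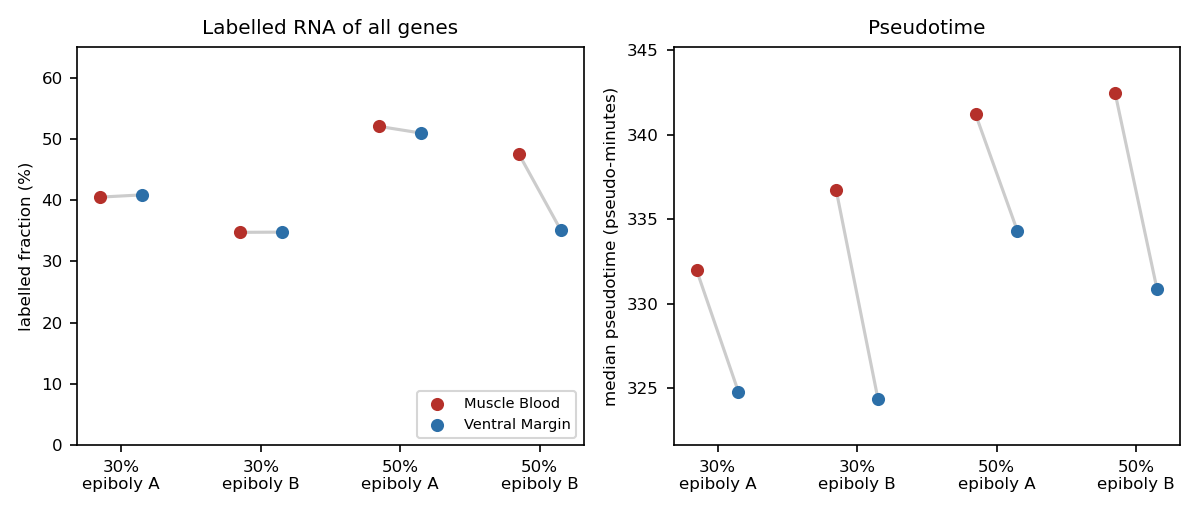
Labelled fraction of all genes (left, percent) and median pseudotime (right, pseudo-minutes, axis not from 0) in each library; red points are Muscle Blood, blue points Ventral Margin, and lines join the types of a library. The labelled fraction lies apart only in 50% epiboly B, and pseudotime is later in Muscle Blood in each library.

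Whether the difference between the types itself changed from 30% to 50% epiboly was tested as an interaction. Of 3607 genes, 0 (0.0%) passed in edgeR, 93 (2.58%) had an unadjusted p below 0.05, and DESeq2 called 0 with 7 unadjusted. Without 50% epiboly A, 2 genes passed. Among the genes of lowest p were cxcl12a, dkk1b, hebp2 and cst3. For cxcl12a, Muscle Blood had 191 and 223 CPM at 30% and 323 and 733 CPM at 50% epiboly, while Ventral Margin had 108 and 138 CPM at 30% and 90.6 and 151 CPM at 50% epiboly (interaction 1.118 ± 0.326 on the log2 scale, edgeR adjusted p = 1.00).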

How the data were processed

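Single cells of IAA-treated, 4sUTP-labelled embryos were profiled by Drop-seq, and 4 epiboly libraries were compared. The authors deposited raw UMI counts per gene and cell, made with Drop-seq tools, combined reads by gene name and kept cells with at least 500 genes; per the labels, GRCz11, Bowtie2 and SAMtools were used. The authors also deposited the labelled fraction per gene and cell, estimated by GRAND-SLAM, in which a gene without UMIs reads 0. The pseudotime score deposited by the authors is a linear transform of a URD ordering of total RNA, and cell types are their Louvain clusters of total RNA, named by marker genes, with endoderm separated by hand. Because cluster and pseudotime use the same counts, tests of total counts describe the clusters. The deposited cell table held 8 further columns that played no part here, and the 5 samples without IAA and the dome library were not analysed here; dome cells entered only the minimum of 50 UMIs per gene, which 10123 of 20920 genes passed.

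UMIs of each type were summed per library, injected RNAs left out, and tested with edgeR 4.0.16 (R 4.3.3; TMM, filterByExpr, quasi-likelihood, library as block, Benjamini-Hochberg). The standard error is the fold change over the root of the test statistic. Labelled fractions were weighted by UMIs over gene and cell pairs with at least 3 UMIs, and a gene needed 10 such UMIs in both types in at least 3 libraries. Fractions, and maternal and zygotic log2(CPM + 1), were tested with limma 3.58.1. DESeq2 1.42.0 was an alternative. Values over all genes were compared by exact sign-flip tests over libraries. The study measured mixing of cells with injected mCherry mRNAs, and no doublets were removed for the comparisons here. Both types of a library come from the same suspension, which gives the pairing, and their deviations from the type means correlated at 0.43, 0.39, 0.32 and 0.28. The scripts were tested on simulated data: edgeR recovered 82.8% of 2-fold changes and 100% of 4-fold changes in total counts. The simulated spread was the one fitted to these data, and only the 93 and 92 changed genes that passed the filter were scored. These shares are therefore not the power in these data.

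Named genes were the 12 of lowest p in each direction with 1 sign in every library, the members of the gene and marker lists, the 3 of lowest p in each direction for labelled, maternal and zygotic values where none passed, the 5 of lowest p for the stage interaction, and cth1 and aif1l. The members and lists were chosen with earlier results of these data known. The alternatives tried were other scalings, filters, pseudocounts, blocks and tools, thinned cells, a shared pseudotime range and each library left out. Some genes that these rules select are not reported here.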

Additional observations from a re-analysis of the deposited data

Results flagged for a closer look

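The labelled fraction of all genes in 50% epiboly B was 12.4 percentage points higher in Muscle Blood than in Ventral Margin, far from the differences of the other libraries. By stage, the differences had opposite signs, at 1.08 and 12.4 points in 50% epiboly A and B and −0.371 and −0.035 points in 30% epiboly A and B, and the difference between stages was not tested. With pairs of 1 or more UMIs the signs were alike, at 0.481 and 0.0628 points in 30% epiboly A and B. In 30% epiboly B, the log2 ratio of Muscle Blood to Ventral Margin was −1.45 for zic2b, apart from the other 3 libraries. For gata5 the ratio there was 7.54 with a pseudocount of 1 CPM; Ventral Margin had 0 UMIs in that library, so both this size and its distance from the other libraries depend on the pseudocount. Chance flags about 1 in 20 such groups.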

How the results depend on the processing

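Of 178 genes called in total counts, DESeq2 called 109 (85 higher and 24 lower), a fit with no replicate block 66 (57 higher and 9 lower) and a block of letter and stage 94 (77 higher and 17 lower). With each library left out in turn, 90 to 210 genes were called, 90 without 50% epiboly A. The other scalings, no filter on low counts, thinned cells and the shared pseudotime range gave 131 to 178. With no filter on low counts, 10 named genes lost their call: tbx16, bmp4, bambia, fzd7b, ctnnb2, etv5b, cyp26a1, mcm6, krt18a.1 and gra. fzd7b also lost it with no scaling beyond library totals and in thinned cells. The stage interaction had 0 called genes and 0 to 2 with a library left out. Maternal expression had 0 called genes, 1 with a pseudocount of 10 CPM, 1 with TMM-scaled totals and 0 to 3 with a library left out, 3 without 50% epiboly B. Zygotic expression had 1 called gene, 2 with a pseudocount of 10 CPM, 3 with no filter on UMIs behind the fraction, 15 with pairs of 1 or more UMIs, 0 with no replicate block, 2 with TMM-scaled totals and 1 to 2 with a library left out. The labelled fraction per gene had 0 called genes in limma under every alternative run. The labelled fraction of all genes differed by 3.27 points, by −2.89 points in the shared pseudotime range and by 0.226 to 4.49 points with a library left out. It differed by 3.26 points with pairs of 1 or more UMIs and by 3.74 points with pairs of exactly 3 UMIs. bmp7a, not called at 0.20 on the log2 scale, read −0.014 without 50% epiboly A and up to 0.25 with another library left out. Of the 24 leading genes, 19 kept their call in all alternatives they were tested in. The causes of these changes were not tested. Depth limits 50% epiboly B most, with 12 Muscle Blood cells.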
